A study of Aspergillus nidulans with 6 samples.

Results

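AtfA ChIP-seq peaks at the promoters of 3 genes with redox functions, *trxA* (AN0170), *sodA* (AN0241) and *mcr1* (AN0432), are described for conidia of *Aspergillus nidulans*. The 3 genes were chosen by the presence, width, summit and score rank of these peaks in MSB-exposed against untreated conidia, with earlier results of the lists known. Peaks were collected when they overlapped VIII:4388841-4389180 for *trxA*, VIII:4172781-4173060 for *sodA* or VIII:3566301-3566680 for *mcr1*, in the coordinates of the FGSC A4 genome used for the lists. They make up 15 of the 2723 peaks, and 3 of the 707 regions that result when overlapping peaks of all lists are merged. As the choice used these measures, all values at the 3 promoters are a description and none was tested.

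The 6 libraries come from conidia of surface cultures, as 2 biological replicates in each of 3 conditions. MSB Tr. (3 d) conidia were 3 d old and had been exposed to 0.04 mM menadione sodium bisulfite (MSB), which raises intracellular superoxide. Untr. (3 d) conidia had the same age without MSB, and Untr. (2 d) conidia were 2 d old and also without it. Every condition used the same *atfA*::3XFLAG strain, in which a Δ*atfA* mutant (*pyrG89*, *pyroA4*, Δ*atfA*::*AfupyrG*+, *veA*+) received a tagged *atfA* copy with its native promoter and the *trpC* terminator on a vector with *pyroA*+. The data thus describe 1 complemented strain, and no input or untagged library was used here as a background. MSB Tr. (3 d) and Untr. (3 d) differ by their labels in MSB alone, whereas MSB Tr. (3 d) and Untr. (2 d) differ in MSB and age, which cannot be told apart.

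AtfA is a bZIP transcription factor of the ATF/CREB type, related to Atf1 of fission yeast, and supports the stress tolerance of conidia, the dormant asexual spores. Thioredoxin, the product of *trxA*, is a small dithiol protein that reduces disulfides and passes electrons to peroxiredoxins. The *sodA* gene encodes the Cu/Zn superoxide dismutase, which turns superoxide into hydrogen peroxide, and *mcr1* is named after an NADH-cytochrome b5 reductase that in budding yeast is found in mitochondria.

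The MSB Tr. (3 d) lists held 453 and 439 peaks, those of Untr. (3 d) held 473 and 451 peaks, and those of Untr. (2 d) held 473 and 434 peaks. The score is the height of a peak in the normalized track of its own library, and it was turned into a rank within the list, given as a percentile with 100 at the top. In each list, 100% of the scores were whole multiples of 1 step, within 1 score unit, so that height can be read as a number of reads if the step stands for 1 read, which the values imply but no source states. The step also gives relative depth. Set against Untr. (2 d) replicate 1, the shallowest library, depth was 2.36 and 3.51 times as high in MSB Tr. (3 d), 1.77 and 2.38 times as high in Untr. (3 d), and 1.88 times as high in the other Untr. (2 d) library. The lowest listed summit had 121 and 203 reads in MSB Tr. (3 d), 31 and 61 reads in Untr. (3 d), and 35 and 41 reads in Untr. (2 d). It was thus higher in both MSB Tr. (3 d) lists than in all untreated ones, and its part in the values below was not tested. Depth partly followed the condition, as the deepest library was of MSB Tr. (3 d) and the shallowest of Untr. (2 d). Untr. (3 d) replicate 2 was, however, as deep as MSB Tr. (3 d) replicate 1. The part of depth in the values below was not tested either. Intervals given for reads are exact 95% Poisson intervals, and those for percentiles place the interval's ends among all peaks of the list. They cover counting error only.

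At *trxA*, every library had a single peak, which was also the case for 35.4% of all regions (250 of 707). The score percentile was 40.6 and 44.9 in MSB Tr. (3 d), against 36.6 and 30.5 in Untr. (3 d) and 16.8 and 17.7 in Untr. (2 d). Both MSB values lay above all 4 untreated ones, and both values of Untr. (3 d) lay above those of Untr. (2 d). Means were 42.7 ± 3.01 in MSB Tr. (3 d) (SD, n = 2), 33.5 ± 4.30 in Untr. (3 d) (n = 2) and 17.3 ± 0.661 in Untr. (2 d) (n = 2). The difference was 17.3 percentile points against all untreated libraries, and 9.21 against Untr. (3 d) alone, since Untr. (2 d) had the lowest ranks. In all libraries *trxA* ranked in the lower part of its list, with 0.911 and 0.970 of the median score in MSB Tr. (3 d), against 0.881 and 0.875 in Untr. (3 d) and 0.697 and 0.725 in Untr. (2 d).

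The summit of the *trxA* peak contained 214 (186 to 245) and 325 (291 to 362) reads in MSB Tr. (3 d). It contained 52 (38.8 to 68.2) and 98 (79.6 to 119) reads in Untr. (3 d), and 53 (39.7 to 69.3) and 58 (44.0 to 75.0) reads in Untr. (2 d). Counting error is broad on the percentile scale, because many peaks of a list have similar heights. In the untreated libraries it is also broad because the summits had few reads, 52 to 98. The percentile intervals ran from 23.4 to 53.0 and from 27.8 to 60.1 in MSB Tr. (3 d), from 8.88 to 62.8 and from 13.5 to 56.3 in Untr. (3 d), and from 1.48 to 40.2 and from 1.15 to 41.9 in Untr. (2 d). All of these intervals overlap one another.

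**Figure D1:**
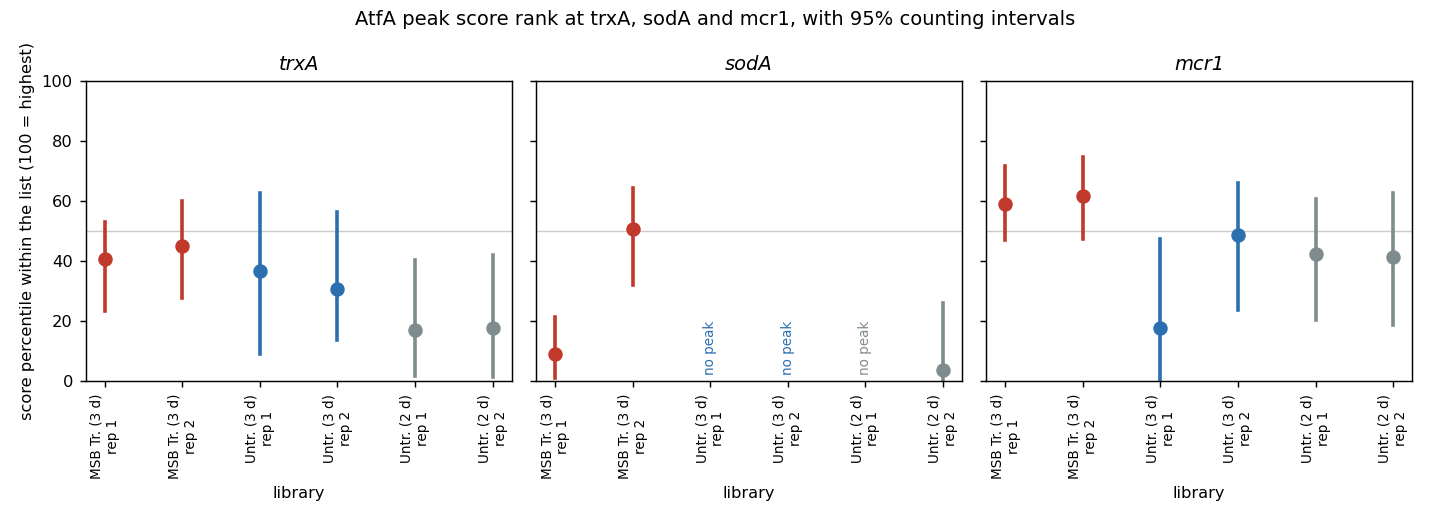
Score percentile (y axis, 100 is the highest peak of a list) of the AtfA peak at *trxA*, *sodA* and *mcr1* in each library (x axis), with points for the value and vertical lines for the 95% counting interval. At *mcr1* both MSB Tr. (3 d) points, 58.9 and 61.7, lie above the untreated points, at *sodA* 3 untreated libraries have no peak, and the intervals at *trxA* overlap in all 6 libraries.

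The width of the *trxA* peak was 340 and 280 bp in MSB Tr. (3 d), against 200 and 200 bp in Untr. (3 d) and 200 and 300 bp in Untr. (2 d). The ranges of MSB Tr. (3 d) and Untr. (3 d) did not overlap, while 1 Untr. (2 d) peak reached into the MSB range. No list held a peak under 200 bp, so 3 of the 4 untreated *trxA* peaks had the lowest width found in their lists. Peaks were wider in the MSB Tr. (3 d) lists in general, with median widths of 400 and 360 bp, against 340 and 340 bp in Untr. (3 d) and 300 and 340 bp in Untr. (2 d). The mean *trxA* width differed by 85 bp between MSB-exposed and untreated libraries, and by 45.9 bp once widths were scaled to their list's median. The summit lay 112 and 132 bp upstream of the transcription start site (TSS) in MSB Tr. (3 d), 72 and 112 bp upstream in Untr. (3 d), and 152 bp upstream in both Untr. (2 d) libraries. The mean position, 122 bp upstream, was equal in MSB-exposed and untreated conidia. The gene lies on the minus strand, and the peak reached the TSS or ended within 42 bp of it in every library.

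At *sodA*, a peak was called in 3 of the 6 libraries, both of MSB Tr. (3 d) and Untr. (2 d) replicate 2. Peaks of both MSB replicates were present in 53.9% of all regions (381 of 707), and such peaks without one in either Untr. (3 d) library in 4.24% (30 of 707). The exact set of libraries found at *sodA* was shared by 4 of 707 regions, 0.566%. In the libraries without a peak, the nearest peak to *sodA* was 104 kb away in Untr. (3 d) replicate 1, 14.3 kb in Untr. (3 d) replicate 2 and 14.3 kb in Untr. (2 d) replicate 1. The lists keep only what passed the peak caller, so an unlisted promoter may still have carried reads, and AtfA binding below that limit could not be seen.

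The peak at *sodA* differed strongly between both MSB libraries. Its percentile was 8.83 in replicate 1 and 50.8 in replicate 2 of MSB Tr. (3 d), against 3.69 in Untr. (2 d) replicate 2. In MSB Tr. (3 d) replicate 1 it was thus close to the bottom of the list, at rank 413 of 453, like the untreated peak at rank 417 of 434, whereas in replicate 2 it stood in the middle, at rank 217 of 439. The gap of 42.0 percentile points between the replicates was reached or passed by 7 of the 381 regions with a peak in both (1.84%), where the median gap was 7.50 points.

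Summit reads at *sodA* were 154 (131 to 180) and 337 (302 to 375) in MSB Tr. (3 d), against 47 (34.5 to 62.5) in Untr. (2 d) replicate 2. As percentiles the intervals were 0.883 to 21.2 and 32.1 to 64.2 in MSB Tr. (3 d), and 0 to 25.8 in Untr. (2 d). The intervals of the MSB replicates did not overlap each other, while that of MSB replicate 1 overlapped the interval of the untreated library. The height was 1.27 and 1.66 times that of the lowest peak of the list in MSB Tr. (3 d), against 1.15 times in Untr. (2 d). The mean difference in percentile was 26.1 points, but the SD of the MSB replicates was 29.7, and the difference was 5.14 without MSB Tr. (3 d) replicate 2 and 47.1 without replicate 1.

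**Figure D2:**
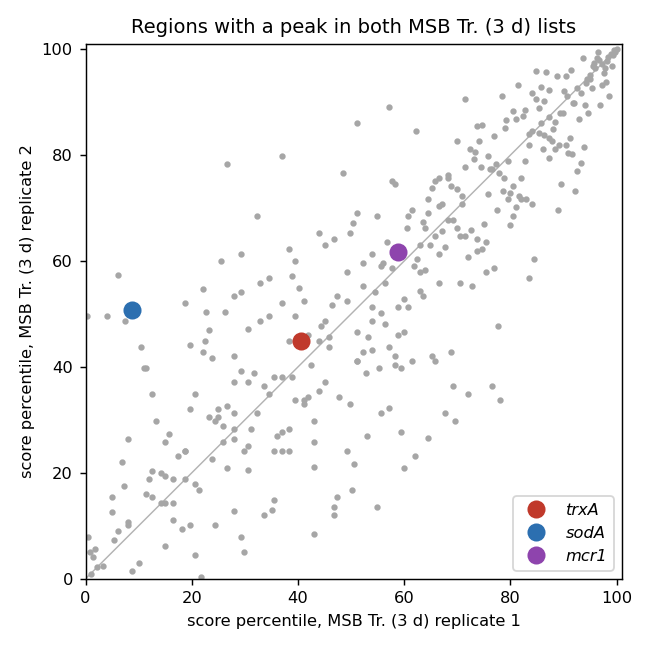
Score percentile in MSB Tr. (3 d) replicate 2 (y axis) against replicate 1 (x axis) for the 381 regions with a peak in both lists, with 1 point per region and the line of equal values. *trxA* and *mcr1* lie near the line, and *sodA*, with 8.83 in replicate 1 and 50.8 in replicate 2, lies far above it.

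Peaks at *sodA* were narrow, with 280 and 240 bp in MSB Tr. (3 d), against 200 bp, the lowest listed width, in Untr. (2 d) replicate 2. The mean difference was 60 bp, and 33.0 bp after scaling to the list medians. Both MSB summits were at the same place, 172 bp upstream of the TSS, against 72 bp upstream in the untreated library, on the minus strand. All 3 peaks ended 42 bp upstream of the TSS. Unlike *trxA* and *mcr1*, whose place was the only one that matched their listed peak distances, *sodA* has few such distances, which matched 3 places, and 1 of these lay in the interval given above. Its TSS distances depend on that choice.

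At *mcr1*, every library had 1 peak, and the percentile was 58.9 and 61.7 in MSB Tr. (3 d), against 17.7 and 48.8 in Untr. (3 d) and 42.4 and 41.5 in Untr. (2 d). Both MSB values were above all untreated ones, and it was the only one of the 3 genes whose MSB peaks were above the list median in both replicates. The means were 60.3 ± 1.97 in MSB Tr. (3 d) (SD, n = 2), 33.2 ± 22.0 in Untr. (3 d) (n = 2) and 41.9 ± 0.647 in Untr. (2 d) (n = 2). The difference was 22.8 points against all untreated libraries and 27.1 points against Untr. (3 d) alone. Unlike at *trxA*, the values of Untr. (2 d) lay between those of the Untr. (3 d) libraries.

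The untreated 3 d replicates disagreed at *mcr1*, by 31.1 percentile points, and 8.78% of the 353 regions with a peak in both had a gap at least as large. The peak had 258 (227 to 291) and 367 (330 to 407) summit reads in MSB Tr. (3 d), against 43 (31.1 to 57.9) and 111 (91.3 to 134) in Untr. (3 d) and 71 (55.5 to 89.6) and 74 (58.1 to 92.9) in Untr. (2 d). The low percentile of Untr. (3 d) replicate 1 thus rests on 43 reads. Percentile intervals were 47.0 to 71.7 and 47.4 to 74.7 in MSB Tr. (3 d), 0.211 to 47.4 and 23.7 to 66.1 in Untr. (3 d), and 20.3 to 60.7 and 18.7 to 62.7 in Untr. (2 d). All of them overlap between MSB-exposed and untreated libraries, except that the interval of Untr. (3 d) replicate 1 ended just under that of MSB Tr. (3 d) replicate 2.

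Relative to the list median, the *mcr1* score was 1.10 in both MSB Tr. (3 d) libraries, against 0.729 and 0.991 in Untr. (3 d) and 0.934 and 0.925 in Untr. (2 d). The width was 360 and 300 bp in MSB Tr. (3 d), 260 and 240 bp in Untr. (3 d), and 200 and 360 bp in Untr. (2 d), so that the widest untreated peak equalled the widest MSB peak. The mean difference was 65 bp, and 23.5 bp after scaling to the list medians. The summits were 89 and 99 bp upstream of the TSS in MSB Tr. (3 d), 119 and 89 bp upstream in Untr. (3 d), and 89 and 129 bp upstream in Untr. (2 d). In 3 libraries, 1 of each condition, the summit was at the same 89 bp, and no condition was set apart by it. The gene is on the plus strand, and all 6 peaks extended over its TSS, by 1 to 81 bp.

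The consensus motif of AtfA is of the CRE type, and a single motif is listed in the promoter window of each gene. The motif positions were taken over from the study's list, and no sequence was searched here. At *trxA*, the summit was 45 and 25 bp from the motif in MSB Tr. (3 d), against 85 and 45 bp in Untr. (3 d) and 5 bp in both Untr. (2 d) libraries. At *mcr1*, it was 1 and 9 bp away in MSB Tr. (3 d), against 29 and 1 bp in Untr. (3 d) and 1 and 39 bp in Untr. (2 d). In every library the motif of both genes thus lay within 85 bp of the summit. At *sodA*, the motif was 815 bp from the summit in both MSB Tr. (3 d) libraries, against 915 bp in Untr. (2 d) replicate 2, so it lay outside the peak in all 3 libraries.

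**Figure D3:**
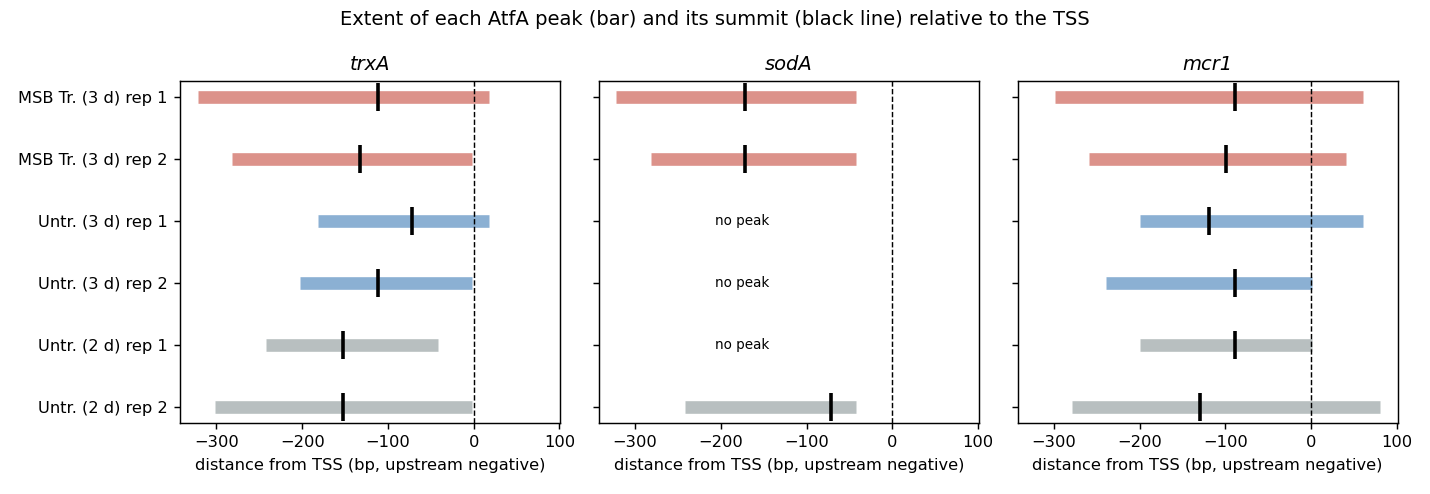
Extent of each AtfA peak (bar) and its summit (black line) along the promoters of *trxA*, *sodA* and *mcr1*, as distance from the TSS in bp (x axis, upstream negative), with 1 row per library and bars coloured by condition. All summits lie between 72 and 172 bp upstream of the TSS, and the MSB Tr. (3 d) bars at *trxA* (340 and 280 bp) are longer than those of Untr. (3 d) (200 bp each).

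The 3 promoters had several features in common. Each was covered by 1 peak per library at most, and all 15 summits were 72 to 172 bp upstream of a TSS. The paper also places the summit of AtfA reads over protein-coding genes upstream of the TSS. The share of other genes with such summits was not counted, so these features are not taken as particular to the 3 genes. All 3 genes are on chromosome VIII, but far apart, with 606 kb between the regions of *mcr1* and *sodA* and 216 kb between those of *sodA* and *trxA*. The closest other region was 3.02 kb from *trxA* and was held by 1 library, 14.3 kb from *sodA* (4 libraries) and 20.7 kb from *mcr1* (1 library). In the RefSeq gene order, which is of another assembly (ASM1142v1), *trxA* lies between ANIA_00171 and ANIA_00169, *sodA* between ANIA_00242 and ANIA_00240, and *mcr1* between ANIA_00433 and ANIA_10103.

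Among the 250 regions with a peak in all libraries, 27 (10.8%) had both MSB Tr. (3 d) percentiles above all 4 untreated ones, *trxA* and *mcr1* included, and 20 had both below. Percentiles of both MSB Tr. (3 d) libraries were above both of Untr. (3 d) in 73 regions (29.2%), and those of both Untr. (3 d) libraries were above both of Untr. (2 d), as at *trxA*, in 43 regions (17.2%). The differences between MSB-exposed and untreated conidia ranged from -38.5 to 33.5 points with a median of 1.22 and quartiles at -6.34 and 8.85. The *mcr1* promoter had the 8th largest and *trxA* the 21st largest of these differences. Since the choice of the genes used this contrast, nothing follows from these ranks. Widths relative to the list median that were higher in both MSB Tr. (3 d) libraries than in all untreated ones were found in 12 regions (4.80%), and neither *trxA* nor *mcr1* was among them, as Untr. (2 d) replicate 2 had 0.882 of its list's median width at *trxA* and 1.06 at *mcr1*, against 0.850 and 0.900 in MSB Tr. (3 d) replicate 1.

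**Figure D4:**
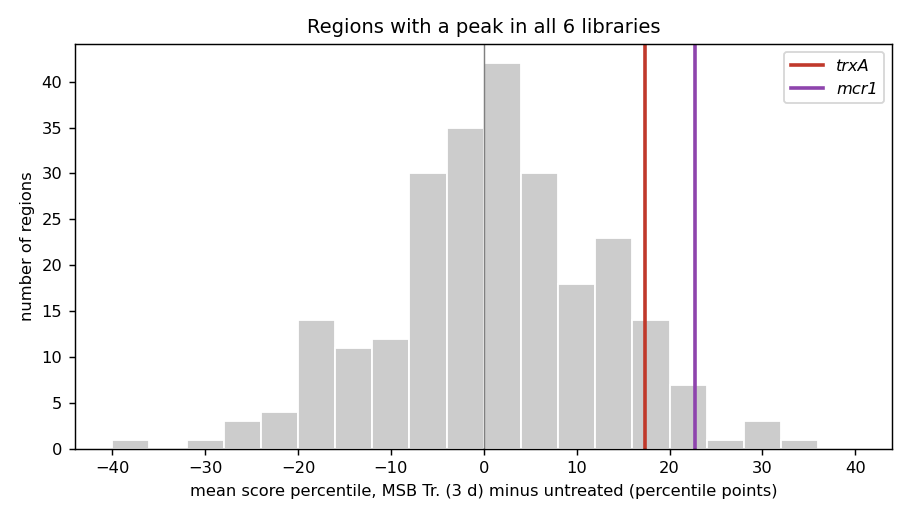
Histogram of the difference in mean score percentile, MSB Tr. (3 d) minus the 4 untreated libraries (x axis, percentile points), over the 250 regions with a peak in all libraries (y axis, number of regions). Lines mark *trxA* at 17.3 and *mcr1* at 22.8, both in the upper part of a distribution with a median of 1.22.

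The regions whose percentiles were most like those of each gene were found by their distance over the libraries that held a peak. For *trxA*, the nearest of 249 regions was IV:390661-391200 at a distance of 15.2 points, with 41.5 and 44.9 in MSB Tr. (3 d), against 42.5 and 21.7 in Untr. (3 d) and 25.1 and 24.8 in Untr. (2 d). For *mcr1*, it was VI:2724081-2724700 at 25.7 points, with 52.2 and 59.6 in MSB Tr. (3 d), against 15.5 and 47.5 in Untr. (3 d) and 46.5 and 65.7 in Untr. (2 d). That region had the low value of *mcr1* in Untr. (3 d) replicate 1, but its highest value was that of Untr. (2 d) replicate 2, not of an MSB library. For *sodA*, 3 regions had the same libraries, and the nearest, V:1572901-1573160 at 28.5 points, had 23.2 and 30.6 in MSB Tr. (3 d) and 17.7 in Untr. (2 d) replicate 2. It lacked the large gap between MSB replicates that was seen at *sodA*.

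Of 19 other genes for catalases, superoxide dismutase, the thioredoxin and glutathione systems and related redox proteins, 6 are in the study's list of genes near AtfA peaks, and 3 of these could be placed on the peaks. The share of all genes in that list was not counted, and the 19 were chosen with earlier results known. Nothing follows from the count of 6. The catalase gene *catA*, which encodes the enzyme of conidia, had a peak in all libraries, with percentiles of 98.5 and 98.6 in MSB Tr. (3 d), against 95.3 to 98.5 in the untreated ones. It was thus near the top of each list, far above *trxA*, *sodA* and *mcr1*. The cytochrome c gene *cycA* was like *sodA* in having peaks in both MSB Tr. (3 d) libraries (19.6 and 44.2) and in neither of Untr. (3 d), although both Untr. (2 d) libraries had one (9.41 and 21.0). The metallothionein-like *crdA* went the other way from *trxA* and *mcr1*, with 45.0 and 63.1 in MSB Tr. (3 d), against 78.2 and 87.4 in Untr. (3 d) and 94.7 and 63.2 in Untr. (2 d). These peaks also differed in place. The *crdA* summits lay downstream of the TSS and those of *cycA* 838 to 858 bp upstream, both unlike *trxA*, *sodA* and *mcr1*. Those of *catA* lay 80 to 120 bp upstream. Other members of the thioredoxin system and the second superoxide dismutase gene *sodB* were not in that list and have no value here.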

How the data were processed

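Peaks were called by the authors in each library separately. Reads were aligned with Bowtie2 to the FGSC A4 genome of JGI MycoCosm, duplicates were removed with Picard, tracks were normalized to RPKM with deepTools, and MACS2 was run on them. The deposited score is a whole number that follows peak height; the 3 remaining value columns are 0 throughout and were left out.

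Percentiles were computed within each list (Python 3.11.15, pandas 2.3.3), ties sharing the mean rank. An overlap of at least 1 bp counted. Peaks lie on a grid of 20 bp. The largest step of which all scores are multiples was found per list, a step chosen on seeing the data, and the scripts' procedures were tested on simulated data. No tests were made. Genes were tied to coordinates through the study's listed peak distances from the TSS, used as a key within a window of 1000 bp upstream to 50 bp downstream (tolerance 1 bp), so TSS positions are the authors'. Motif positions come from the same list. Sequences and 13 redox genes outside that list were not analysed here. The members, the redox gene list and the alternatives were chosen with earlier results of these data known. The named regions are those nearest by percentile. Alternatives were 50% coverage of the interval, the 300 best peaks, the merged region, width ranks, Untr. (3 d) alone, absent peaks at percentile 0, the peak centre, width over the list median, and leaving out each library.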

Additional observations from a re-analysis of the deposited data

How the results depend on the processing

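With 2 libraries a condition and 1 strain, values are descriptions, and counting error limits the ranks. No paired analysis was possible because the results come from no test and the labels do not say what equal replicate numbers share. Of 71 recomputed values, 61 stayed within the replicate spread (or within 1.5 times, for counts) and 10 did not. At *sodA*, the spread of percentile and width was that of the 2 MSB Tr. (3 d) replicates alone, 29.7 points for percentiles. Leaving out 1 of these could not pass it, so these *sodA* values are among the 61 by construction and do not show stability. At *mcr1*, the spread exceeded the difference itself for width (70.2 against 65 bp) and for summit (20.8 against 12.5 bp). Staying within it does not show stability there either. The *trxA* summit difference was 0 bp with a spread of 18.3 bp, so its sign could change within the spread. Among the 300 best peaks, 3 libraries held *trxA*, 1 held *sodA* and 5 held *mcr1*. For *trxA* these were both MSB Tr. (3 d) libraries and Untr. (3 d) replicate 1. The *trxA* percentile difference of 13.8 points there thus rests on 1 untreated peak, at percentile 1.64 of the shortened list. With all peaks, the *trxA* difference was 20.7 points by width rank and 9.21 against Untr. (3 d) alone. Summit differences, in genome coordinates, changed to 27.5 bp (*trxA*), 30 bp (*sodA*) and -17.5 bp (*mcr1*, with the opposite sign of 12.5 bp) for peak centres, and to 30 bp for *trxA* against Untr. (3 d). Leaving out each library gave percentile differences of 14.5 to 21.1 (*trxA*), 5.14 to 47.1 (*sodA*) and 16.1 to 26.5 (*mcr1*), and width differences of 55 to 115, 40 to 80 and 35 to 96.7 bp. Scaling to the list medians reduced the width differences by more than 1.5 times, to 45.9 bp (*trxA*), 33.0 bp (*sodA*) and 23.5 bp (*mcr1*). The *trxA* summit difference ran from -16.7 to 10 bp, the *mcr1* one from 5 to 18.3 bp, and that at *sodA* was 100 bp in both. The cause of these changes was not tested. Leaving out the only untreated library with a *sodA* peak left nothing to compare.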
